A study of Mus musculus with 6 samples.

Results

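The 10 genes described here encode the constant regions of mouse antibodies and the J chain, and they were followed in femoral RNA of ovariectomized mice. The members were taken by gene name from a table of 54532 genes: the heavy-chain genes Ighm, Ighd, Ighg1, Ighg2b, Ighg2c, Ighg3 and Igha, the light-chain genes Igkc and Iglc1, and Jchain. All 10 were found, each as 1 row, and all 10 averaged 1 FPKM or more. The unit is fragments per kilobase of gene length, scaled by a total for each library that differs somewhat from the reads listed. Of 13 genes that the table classes as immunoglobulin constant genes, 9 are members.

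The series concerns zingerone, a phenolic compound of ginger, in bone loss after ovariectomy (OVX). Its labels give 3 Zin samples, from animals dosed orally with zingerone, 100 mg/kg daily over 8 weeks, and 3 OVX samples from animals given saline; both groups are labelled wild type (WT) and bone. The values of the 3 OVX samples could be tied to their labels and are reported as libraries 1, 2 and 3. The Zin samples were not analysed here. The titles attach 8, 9 and 10 weeks to libraries 1, 2 and 3, without saying whether this is an age or a time after surgery, and each week has 1 library, so that week and library cannot be told apart. No label names separate animals, so the spread between libraries may in part be technical. The labels give neither strain nor sex and also name RAW264.7, a macrophage-like cell line, whereas the extraction text names ground femurs. Genes that define B cells were clearly present, with Cd79b, a chain of the B cell receptor, at 190, 162 and 173 FPKM in libraries 1, 2 and 3.

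An antibody joins 2 identical heavy chains to 2 identical light chains, and the heavy-chain constant region sets its class. B cells first use Ighm and Ighd, which one long transcript can supply by alternative splicing, and class-switch recombination later deletes the DNA in between and puts a downstream gene in their place. Plasma cells, which secrete antibody and for which bone marrow is a long-term home, carry very large amounts of these transcripts, so that a few cells can contribute much of the RNA. The J chain is a small protein of antibody-secreting cells that links IgM and IgA into polymers.

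The heavy-chain genes lie in 1 cluster on the minus strand of chromosome 12 (mm10) and are given here in their order along that strand. Ighm lies at chr12:113418558-113422730 and Ighd at chr12:113406604-113416324. The IgG genes follow, with Ighg3 at chr12:113356224-113361232, Ighg1 at chr12:113325240-113330523, Ighg2b at chr12:113302965-113307933 and Ighg2c at chr12:113285325-113288932. Igha is the last, at chr12:113254830-113260236. Igkc lies at chr6:70726435-70726966 on the plus strand, Iglc1 at chr16:19061618-19062071 and Jchain at chr5:88519809-88527891, both on the minus strand.

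The hinge is a short flexible segment, encoded by an exon of its own in the IgG genes, and it is shown because it tells apart the subclasses whose levels are compared below. The exons are given 5′ to 3′ on the coding strand from GENCODE release M21 (GRCm38, the assembly of mm10), with in-frame cysteine codons in capitals; hinge cysteines can link heavy chains to each other. They lie at chr12:113329844-113329882 for Ighg1, chr12:113307261-113307326 for Ighg2b, chr12:113288263-113288325 for Ighg2c and chr12:113360529-113360576 for Ighg3.
Ighg1: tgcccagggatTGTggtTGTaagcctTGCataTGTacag
Ighg2b: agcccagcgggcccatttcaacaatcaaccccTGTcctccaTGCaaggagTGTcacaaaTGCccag
Ighg2c: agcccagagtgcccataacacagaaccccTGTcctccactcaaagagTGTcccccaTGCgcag
Ighg3: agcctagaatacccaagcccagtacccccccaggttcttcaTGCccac

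The exons are 39, 66, 63 and 48 bases long and hold 4, 4, 3 and 1 cysteine codons in the order listed. Over the whole secreted-form transcripts Ighg2b and Ighg2c are the most alike of the 4 IgG genes, at 86.4% identity of aligned bases, and the other pairs of IgG genes lie between 74.2% and 76.8%. Windows of 50 bases that also occur in a transcript of another gene made up 5.49% of those of Ighg2c, 4.15% of Ighg2b, 1.58% of Ighg3 and 0.393% of Ighg1, so that a small part of the reads of these genes could belong to another subclass. The other 6 members shared no such window.

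The secretory tailpieces of IgM and IgA are shown because the J chain attaches there. In each, the capitals mark the codon of the penultimate cysteine, to which it is joined in the assembled polymer. They lie at chr12:113420870-113420928 for Ighm and chr12:113258771-113258829 for Igha, both 59 bases from the splice site of the membrane form to the last codon before the stop.
Ighm: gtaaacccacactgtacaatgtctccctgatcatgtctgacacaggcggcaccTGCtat
Igha: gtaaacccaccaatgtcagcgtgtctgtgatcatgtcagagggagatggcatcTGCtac

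The table gives 1 value per gene, so secreted and membrane forms were not told apart.

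In FPKM, which divides by the listed gene length, Igkc was the most abundant member and Ighm the second in all 3 libraries, and Ighg3 was the lowest. Before division by length the first places were exchanged: Ighm had 20112, 19617 and 18279 reads and Igkc 19001, 14964 and 13695 reads in libraries 1, 2 and 3. The members together held 69477, 60443 and 54802 reads in libraries 1, 2 and 3, or 0.408%, 0.356% and 0.330% of all reads listed, with exact Clopper-Pearson intervals of 0.405% to 0.411%, 0.353% to 0.359% and 0.328% to 0.333%. Their summed level was 3521, 3031 and 2819 FPKM. All of these intervals cover counting error only. In bulk tissue, fewer cells of a type and less RNA per cell cannot be told apart.

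**Figure D1:**
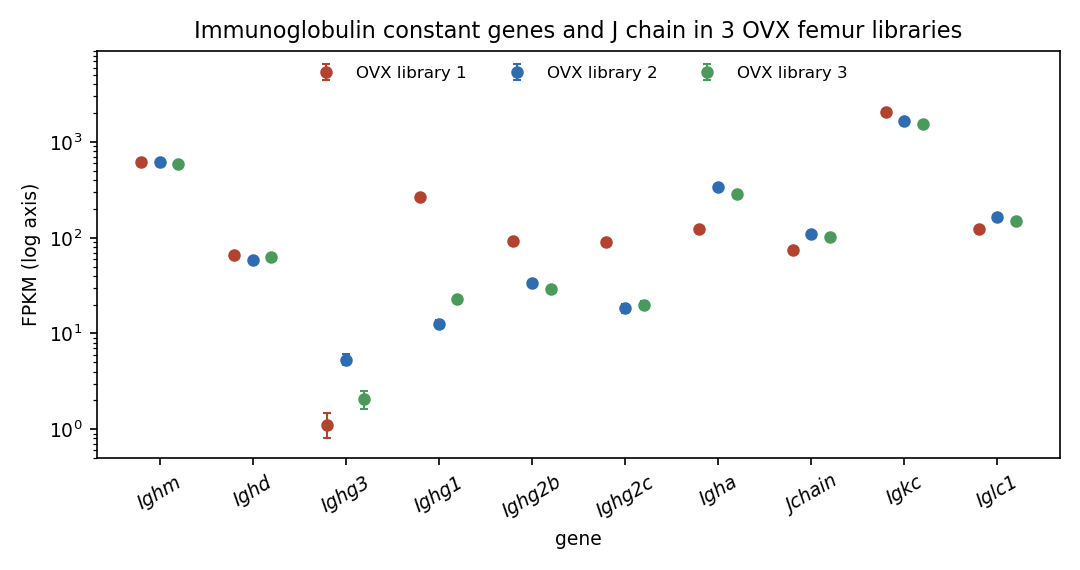
FPKM (log axis) of the 10 members in OVX libraries 1, 2 and 3; bars are exact Poisson 95% intervals, often smaller than the points. Ighm and Ighd lie close together in the 3 libraries, while Ighg1, Ighg2b and Ighg2c are highest and Igha, Jchain and Iglc1 lowest in library 1.

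The constant regions of unswitched B cells varied least. Ighm, the heavy chain of IgM, had 617, 617 and 586 FPKM in libraries 1, 2 and 3, a mean of 607 ± 17.9 (SD, n = 3), and was 49th by mean level among all genes listed. Its coefficient of variation was 2.96%, against a median of 7.49% over the 14011 tested genes, those with a mean of at least 1 FPKM. Ighd, the heavy chain of IgD on mature naive B cells, had 66.8, 58.5 and 62.5 FPKM, a mean of 62.6 ± 4.16 (SD, n = 3). Library 1 was highest and library 2 lowest for Ighd, by a ratio of 1.14 (exact 95% interval 1.07 to 1.22). Ighm was 9.23, 10.6 and 9.39 times as high as Ighd within libraries 1, 2 and 3. Set against Cd79a and Cd79b, both chains of the B cell receptor's signalling pair, Ighd was almost level, at 0.181, 0.180 and 0.184 of their summed FPKM.

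Ighg1, Ighg2b and Ighg2c set library 1 apart. Ighg1 had 265 FPKM in library 1, against 12.6 in library 2 and 23.2 in library 3, with 11891, 550 and 994 reads behind these values. Library 1 was thus 21.1 times as high as library 2 (exact 95% interval 19.3 to 23.0). On the log2(FPKM + 1) scale its excess in library 1 over the mean of libraries 2 and 3 was 3.88, which ranked 1 of the 14011 tested genes; this comparison was chosen after the values had been seen and is a description of 3 libraries.

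Ighg2b had 92.3, 33.8 and 29.0 FPKM, with library 1 above library 3 by a ratio of 3.19 (exact 95% interval 2.99 to 3.40). Ighg2c had 91.3, 18.3 and 19.7 FPKM, with library 1 above library 2 by a ratio of 5.00 (4.49 to 5.57). A gene named Ighg2a was looked for and is not listed, so any reads from it could not be counted as such, and the labels give no strain. For both genes library 1 was high and the other libraries were close to each other. By the same excess in library 1, Ighg2c ranked 18 and Ighg2b 88 of the tested genes.

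Ighg3, the IgG subclass of many antibodies to polysaccharides in the mouse, went the other way. It had 1.11, 5.32 and 2.05 FPKM from 48, 225 and 85 reads, with library 2 above library 1 by a ratio of 4.81 (exact 95% interval 3.51 to 6.71) and 2.60 times as high as library 3. For this gene library 2 stood apart. The 4 IgG genes together came to 450, 70.0 and 73.9 FPKM. Within that sum Ighg1 led library 1 at 59.0%, while Ighg2b led libraries 2 and 3 at 48.3% and 39.2%.

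IgA and the J chain were lowest in library 1. Igha, the heavy chain of the antibody class of mucosal surfaces, had 122 FPKM in library 1, 343 in library 2 and 287 in library 3, with 5641, 15407 and 12666 reads behind these values. Library 2 was 2.80 times as high as library 1 (exact 95% interval 2.72 to 2.89). Jchain had 75.1, 109 and 103 FPKM in the same order of libraries, with library 2 above library 1 by a ratio of 1.45 (1.39 to 1.52). Igha was thus 1.63, 3.15 and 2.79 times as high as Jchain. Ighm and Igha summed, which encode the classes with a tailpiece, were 9.85, 8.81 and 8.47 times as high as Jchain. These levels include membrane forms, which were not told apart from the secreted forms that carry the tailpiece.

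The heavy-chain classes therefore made up different shares in library 1. Of the summed FPKM of the 7 heavy-chain genes, Ighm took 49.1%, 56.7% and 58.1%, Igha 9.74%, 31.5% and 28.4%, and the 4 IgG genes 35.8%, 6.43% and 7.32% in libraries 1, 2 and 3. Igha was 0.272, 4.90 and 3.89 times as high as the IgG sum. The switched classes together, IgG and IgA, took 45.6%, 37.9% and 35.8%, a narrower range than that of IgG or IgA alone. Shares of reads, which are not divided by gene length, gave Igha 12.2%, 38.9% and 35.5% of heavy-chain reads, with exact Clopper-Pearson intervals of 11.9% to 12.5%, 38.4% to 39.4% and 35.0% to 36.0%. They gave the IgG genes 39.6% (39.1% to 40.0%), 6.84% (6.59% to 7.09%) and 7.82% (7.55% to 8.11%). Length matters for these shares because the listed lengths exceed those of the secreted-form transcripts by unequal amounts. Igha is listed at 2668 bases, against 1100 for its secreted-form transcript, Ighg1 at 2592, against 1076, Ighg2b at 2678, against 1114, and Ighg3 at 2512, against 1082. Ighm, listed at 1886 bases against 1493, and Ighg2c, at 1326 against 1111, differ less, which raises their FPKM relative to the other heavy chains. In library 1 Ighg2c and Ighg2b thus took 7.27% and 7.35% of heavy-chain FPKM, but 4.52% and 9.23% of heavy-chain reads.

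**Figure D2:**
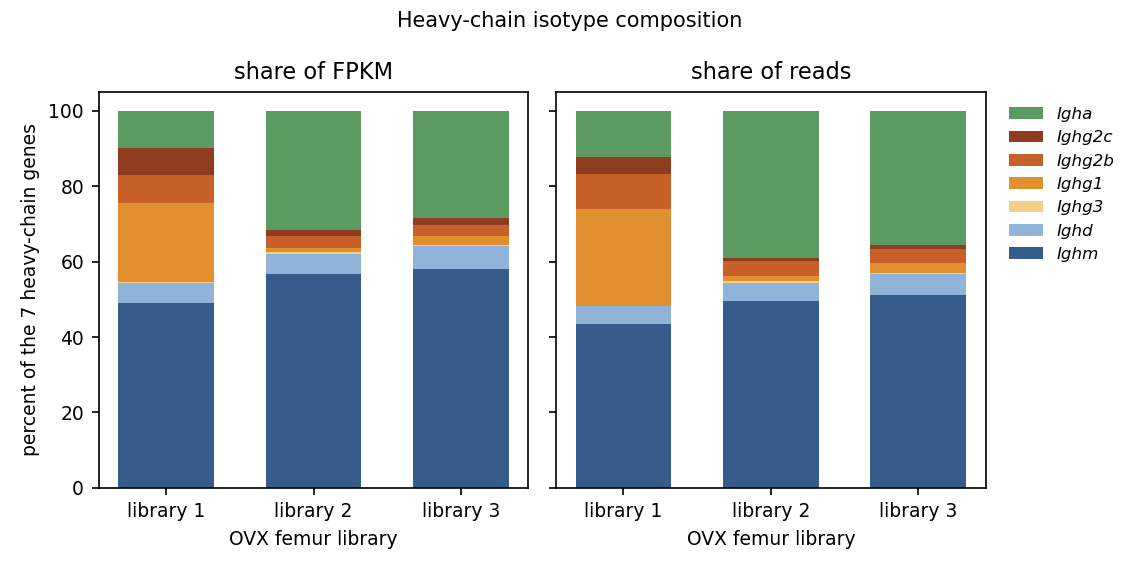
Percent of the 7 heavy-chain genes' summed FPKM (left) and reads (right) taken by each gene in OVX libraries 1, 2 and 3, as stacked bars. The IgG genes take 35.8% of FPKM in library 1, against 6.43% and 7.32% in libraries 2 and 3, and Igha takes 9.74%, 31.5% and 28.4%.

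Among light chains kappa led, and the sum of light chains kept a near constant ratio to heavy chains. Igkc, the only kappa constant gene, had 2067, 1669.7 and 1557 FPKM in libraries 1, 2 and 3, with library 1 above library 3 by a ratio of 1.33 (exact 95% interval 1.30 to 1.36). Iglc1, the constant gene of lambda 1, had 123, 164 and 149 FPKM and was lowest in library 1. Igkc was therefore 16.9, 10.2 and 10.5 times as high as Iglc1.

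Of the constant genes outside the members, Iglc2 had 91.3, 70.5 and 75.5 FPKM and Iglc3 50.4, 42.6 and 45.5, both highest in library 1. Iglc2 and Iglc3 are 94.9% identical over their aligned transcripts and share 7.65% and 10.7% of their 50-base windows, so their split is uncertain. Against Iglc1, Iglc2 and Iglc3 summed, the kappa ratio was 7.82, 6.03 and 5.77. Ighe, the heavy chain of IgE, had 8, 23 and 7 reads, and Iglc4 had 2, 2 and 0 reads, where the 0 leaves room for as many as 3 reads, which would be 0.578 FPKM. Igkc with Iglc1, Iglc2 and Iglc3 came to 1.86, 1.79 and 1.81 times the summed FPKM of the heavy-chain genes. The level of this ratio depends on the listed gene lengths, which for heavy-chain genes exceed those of the secreted-form transcripts. Reads on variable genes stood in a similarly steady ratio to those on constant genes, at 24.2, 24.0 and 23.5 per 100.

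By mean FPKM, per listed length, the order was Igkc (1765 FPKM), Ighm (607), Igha (251), Iglc1 (145), Ighg1 (100.4), Jchain (95.7), Ighd (62.6), Ighg2b (51.7), Ighg2c (43.1) and Ighg3 (2.82). The ranges over the 3 libraries did not overlap between Igkc and Ighm, Ighm and Igha, Jchain and Ighd, or Ighg2c and Ighg3. The other 5 neighbouring pairs overlapped and are not ordered beyond their spread. The place of Ighg1 rested on library 1: it was at place 3 of the 10 members there, at place 9 in library 2 and at place 8 in library 3. Without library 1 the mean was 17.9 FPKM for Ighg1, 19.0 for Ighg2c and 31.4 for Ighg2b, and without library 2 it was 1.58 for Ighg3.

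By a chi-square test of reads per gene, adjusted by Benjamini-Hochberg over all tested genes, all 10 members differed between libraries by more than counting noise, where 38.7% of all tested genes did, so counting noise alone is a weak standard at this depth. The adjusted p was 4.61e-10 for Ighm, 3.18e-05 for Ighd, 2.50e-08 for Iglc1 and 7.95e-56 for Jchain in that chi-square test. The test compares libraries and not conditions. Ighg1, Ighg2b, Ighg2c, Ighg3 and Igha were at least 2-fold higher in their highest than in their lowest library on the log2(FPKM + 1) scale, 5 of 10 members, where 5.89% of tested genes were. Of these 5, Ighg1, Ighg2b and Ighg2c were highest in library 1, and Igha and Ighg3 were lowest there. Of the 825 tested genes with a 2-fold difference, 316 were highest in library 1, which is 2.26% of all tested genes, and 256 were lowest there, which is 1.83%. Without library 1 only Ighg3 remained beyond 2-fold among the 10 members, where 3.73% of tested genes did. The median ratio of highest to lowest library on that scale was 2.12 for the members and 1.13 over all tested genes.

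Without library 1, 6 of the 10 members differed between libraries 2 and 3 by the chi-square test, where 24.9% of tested genes did. Ighd, Ighg2c, Iglc1 and Jchain then did not pass, with adjusted p of 0.104, 0.435, 0.0874 and 0.0570. Igha still passed, at 1.19 times as high in library 2 as in library 3, and so did Ighg1, at 0.543 times. Without library 3, Ighm did not pass between libraries 1 and 2, with an adjusted p of 0.0871 by that chi-square test, and 29.8% of tested genes passed.

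**Figure D3:**
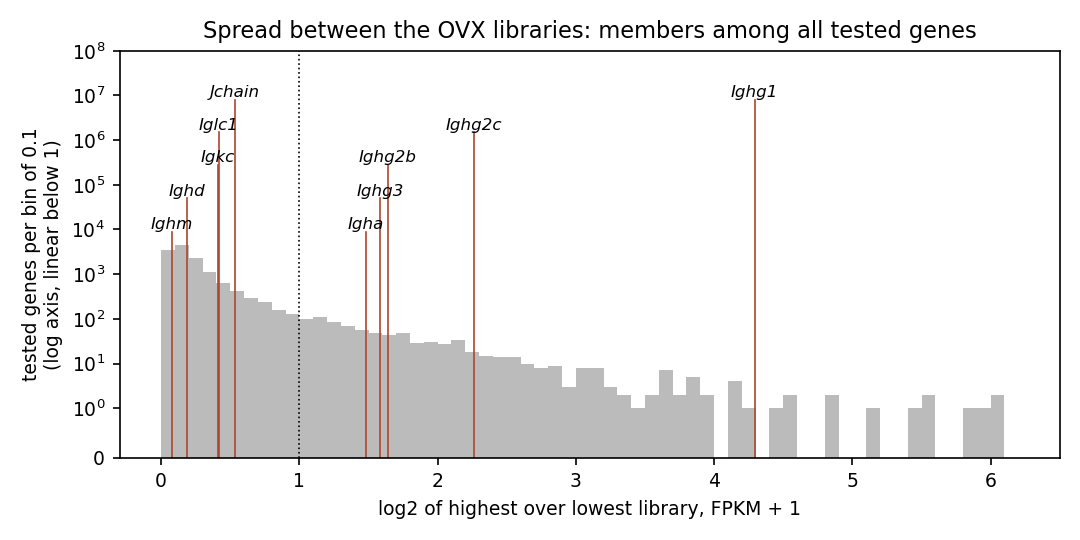
Number of tested genes (log axis, linear below 1) by the log2 ratio of the highest to the lowest OVX library after adding 1 to FPKM; red lines, whose heights carry no value, mark the 10 members and the dotted line marks 2-fold. Ighm and Ighd stand among the bulk of genes, 5 members lie beyond 2-fold, and Ighg1 has the 14th largest ratio of 14011.

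Genes of the cells that make antibody had smaller ratios between libraries than the IgG and IgA genes. The counts below stand against 38.7% of all tested genes that differed beyond counting noise, 5.89% with a 2-fold difference, a median ratio of 1.13, and 4666, 4875 and 4470 of 14011 genes that were highest in libraries 1, 2 and 3. Of the plasma cell list, 13 of 15 genes were tested and all 13 differed beyond counting noise, none of them 2-fold, with a median ratio of highest to lowest library of 1.19 on the log2(FPKM + 1) scale. The list's summed level was 341, 358 and 318 FPKM in libraries 1, 2 and 3, and 4, 8 and 1 of its tested genes were highest there. Pou2af1, a coactivator of immunoglobulin transcription, had 82.5, 78.4 and 71.3 FPKM. Xbp1, the transcription factor that expands the secretory pathway, had 53.2, 58.8 and 52.0 FPKM. Mzb1, a chaperone of antibody assembly in the endoplasmic reticulum, had 46.1, 49.5 and 41.4 FPKM. Sdc1, the plasma cell surface marker CD138, had 8.89, 13.9 and 11.6 FPKM and was chosen after its values had been seen. Like Igha and Jchain it was lowest in library 1 and highest in library 2. Most of the list was not: 3 of the 13 tested genes were lowest in library 1 and 9 in library 3. Over all 14011 tested genes, 4566 were lowest in library 1 and 4282 in library 3. Derl3 went the other way from Sdc1, being highest in library 1 and lowest in library 3.

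B cell genes were slightly higher in library 1. All 13 genes of that list were tested, 12 were highest in library 1, where 4666 of all 14011 were, and 11 differed beyond counting noise, none 2-fold, where 38.7% of tested genes differed. The list summed to 764, 674 and 697 FPKM in libraries 1, 2 and 3. Cd79a had 180, 163 and 167 FPKM and Spib, a transcription factor of B cells, 119, 111 and 115. Scaled to Cd79a and Cd79b, the IgG sum was 1.22, 0.215 and 0.218 and Igha 0.331, 1.06 and 0.847, so that library 1 again had the highest IgG and the lowest Igha value.

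Genes of early B cells, which assemble their receptor genes, were mostly lowest in library 3. Of 8 tested genes 7 differed, with 4 highest in library 1, 4 highest in library 2 and 7 lowest in library 3, where 4282 of all 14011 tested genes were lowest. They summed to 263, 275 and 241 FPKM in libraries 1, 2 and 3. Vpreb3, which aids B cell receptor assembly, had 119, 113 and 110 FPKM. Rag1, the recombinase, had 42.4, 36.7 and 33.1 FPKM, and Vpreb1, part of the surrogate light chain, 26.5, 33.9 and 27.8.

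Class-switch genes differed about as often as tested genes in general. Of 14 tested, 5 differed beyond counting noise, where 38.7% of all tested genes did, and none was 2-fold. Their median ratio was 1.07 on the log2(FPKM + 1) scale, against 1.13 over all tested genes. The end-joining protein gene Xrcc6 had 21.6, 21.8 and 21.2 FPKM, and the mismatch repair gene Msh6 had 20.0, 20.5 and 22.6 FPKM.

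Of 9 tested genes that bind or transport antibody, 7 differed, where 38.7% of all tested genes did, and none was 2-fold, where 5.89% were. Fcer1g, the signalling chain shared by activating Fc receptors, had 221, 209.5 and 211 FPKM, Fcgr3, an activating IgG receptor, 84.2, 79.6 and 82.5, and Fcrla, an intracellular Fc receptor-like protein of B cells, 66.5, 53.1 and 60.9. Pigr, which carries J chain polymers across epithelia and was chosen after its values had been seen, had 7, 2 and 2 reads.

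**Figure D4:**
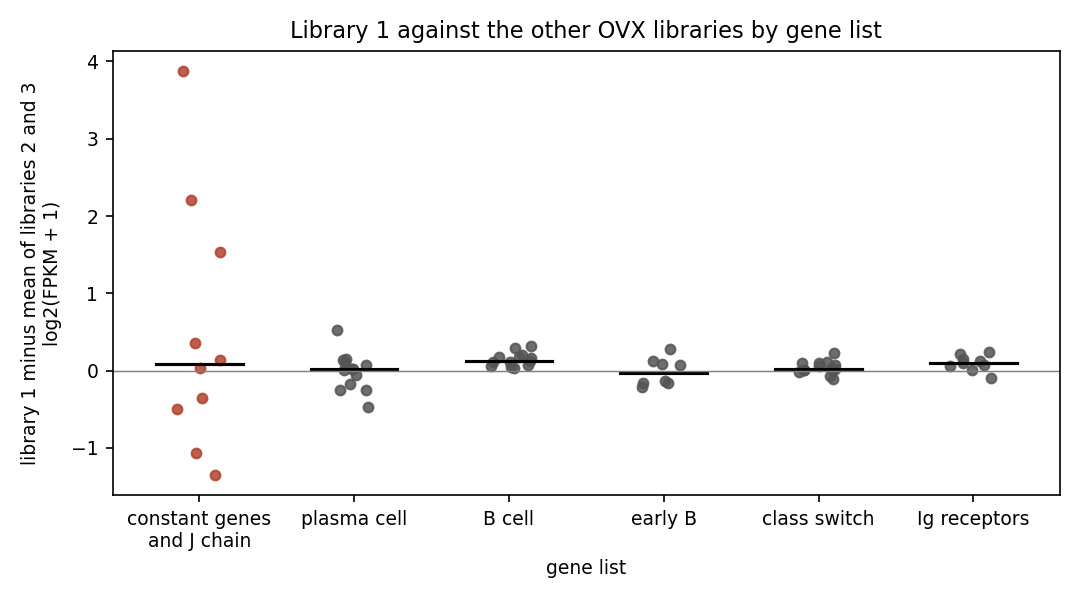
Level in OVX library 1 minus the mean of libraries 2 and 3 on the log2(FPKM + 1) scale, 1 point per tested gene and black lines at list medians. The members reach from -1.35 for Igha to 3.88 for Ighg1, whereas the 5 other lists shown lie between -0.47 and 0.53. Lists not shown include muscle genes, at 1.85 to 2.39, and cartilage genes, at -4.09 to -0.83. Osteoblast genes, also not shown, lie between -2.08 and 0.29, and T and NK cell genes between -0.63 and 0.93. Red cell and neutrophil genes lie between -0.51 and 0.16.

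The libraries also differed in transcripts of other tissues, whose part in these results was not tested. The 8 muscle genes summed to 1390, 115 and 906 FPKM in libraries 1, 2 and 3, the 10 osteoblast genes to 2262, 5656 and 1680, and the 8 cartilage genes to 24.8, 561 and 54.0. Muscle, osteoblast and cartilage sums, like Ighg3, set library 2 apart from the others, while Ighg1, Ighg2b, Ighg2c and Igha set library 1 apart. All 8 muscle genes were also highest in library 1. Their excess there over the mean of libraries 2 and 3 was 1.85 to 2.39 on the log2(FPKM + 1) scale. That of Ighg1, Ighg2c and Ighg2b was 3.88, 2.21 and 1.53. Of the 8 cartilage genes 6 were lowest in library 1, as Igha was, where 4566 of all 14011 tested genes were. Of the 10 osteoblast genes 4 were lowest there, near that share, and 6 were lowest in library 3. The 10 T and NK cell genes summed to 85.8, 66.0 and 73.4 FPKM, and none was at 0 in any library. Of 9 tested, 5 were highest in library 1, where 4666 of all 14011 were. Cd4, the coreceptor of helper T cells, had 19.0, 9.60 and 9.39 FPKM, so that library 1 was high and the others close to each other, as for Ighg1, Ighg2b and Ighg2c. Other T cell genes did not share that form. Trac, at 4.89, 5.02 and 3.95 FPKM, and Cd8a, at 1.69, 1.73 and 1.21, were highest in library 2. Cd3d had 2.84, 2.52 and 2.80 FPKM, and Cd3g had 1.35, 1.29 and 0.648, with libraries 1 and 2 close to each other. Trbc2, a T cell receptor constant gene, had 11.9, 6.86 and 9.00 FPKM, and the largest part of the sum, Nkg7 of cytotoxic cells, had 41.2, 35.5 and 41.2. The NK cell receptor genes Ncr1, at 1.13, 1.81 and 2.87 FPKM, and Klrb1c, at 1.07, 1.22 and 1.78, were lowest in library 1. All of these T and NK cell genes were named after their values had been seen. In the table a noncoding gene, Gm30211, overlaps Igkc on the same strand with 404, 378 and 367 reads, and 2010309G21Rik overlaps Iglc1 on the opposite strand with 26, 16 and 19 reads.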

How the data were processed

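The deposited table holds FPKM of each gene in each library and the gene lengths that the authors used. Per the submitters' processing notes, Trimmomatic, FastQC, STAR and featureCounts were used with build mm10; their versions and settings, such as strand and treatment of multimapping reads, were not given in the sources used here. Columns were used only where their names matched the library name in a sample's labels, which held for the 3 OVX libraries. The other 3 columns of sample values matched no label and were not used, so the planned comparison of Zin with OVX by limma was not run.

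Multiplied by gene length, 100% of the FPKM above 0 were whole multiples of a step that is worth 1 read, within 0.01 read. This gave 17017907, 16964740 and 16581579 reads in libraries 1, 2 and 3. The totals by which the FPKM had been divided were 1.728e+07, 1.685e+07 and 1.653e+07 in the same order, and so were not the reads listed. They were nearly in proportion to median-of-ratios factors, which set library size by the median gene and were 1.026, 0.9997 and 0.981. The FPKM and the chi-square test, which used the reads listed, thus rest on different scalings. With 0 reads counted, as many as 3 may have been missed, a share of 1.76e-05%, 1.77e-05% and 1.81e-05% in libraries 1, 2 and 3. The 95% intervals are exact Poisson for levels and exact Clopper-Pearson for shares; a ratio of 2 libraries uses the exact binomial interval of its reads. They cover counting error only, because 1 molecule can give several reads.

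The 14011 genes that averaged 1 FPKM or more entered a chi-square test of their reads against the library totals. Its p-values were adjusted by Benjamini-Hochberg, with 0.05 as threshold. Values on a log scale are log2(FPKM + 1), which understates differences of low genes. On simulated counts with counting noise alone, 0.109% of unchanged genes and 89% of genes raised 2-fold in library 1 passed. This check cannot show how the test behaves where libraries differ beyond counting noise.

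The members and gene lists were chosen with earlier results of these data known. Beyond the members, the 3 genes of highest mean FPKM in each list were named, together with plasma cell, class-switch or receptor genes that differed 2-fold, of which there were none, and the other constant genes; exceptions are stated, and 1 gene that this rule names is not reported here. The rule's last part, genes of like profile, needed 6 samples and was not applied. All 10 members had the same identifier, start, end and strand in GENCODE release M21, from whose transcripts the sequences and shared windows were read on the sense strand. The software was matplotlib 3.10.9, scipy 1.17.1, pandas 2.3.3 and numpy 2.4.6 under Python 3.11.15.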

Additional observations from a re-analysis of the deposited data

How the results depend on the processing

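No paired analysis was possible because only libraries of the OVX group could be used. The settings foreseen for Zin against OVX (pseudocount, filter, scaling, left-out libraries) were not run for the same reason. The mean levels of the 10 members moved by less than 1 SD under all 60 other values computed for them, from 3 other scalings and each library left out. However, a mean of 3 cannot move by 1 SD when 1 value is left out. The scalings could hardly move it either, because they use totals close to those behind the FPKM or factors centred on an unchanged average. Median-of-ratios scaling nearly repeats the deposited one. Ratios of highest to lowest library, which scaling can move, were 21.6 for Ighg1 and 2.74 for Igha from the reads listed, against 21.1 and 2.80 as deposited. The mean of Ighg1 was 100.4 FPKM and 17.9 without library 1, that of Ighg2c 43.1 and 19.0, that of Ighg2b 51.7 and 31.4, and that of Ighg3 2.82 and 1.58 without library 2. All 10 members differed between libraries with no filter and with median-of-ratios factors, 9 of 9 tested did so among genes averaging 5 FPKM or more, and 9 of 10 did so against the summed reads of Cd79a and Cd79b, a setting added after seeing the data, with Ighd the exception. Of all tested genes 22.4%, 37.4%, 44.9% and 57.7% passed under these settings. By the 2-fold rule the count was 5 after adding 1 to FPKM, 5 after adding 0.1 and 4 after adding 5, where 5.89%, 8.95% and 1.76% of tested genes passed. With each library left out in turn, between 6 and 10 members passed the chi-square test, 6 without library 1, 10 without library 2 and 9 without library 3, where 24.9%, 18.0% and 29.8% of tested genes passed. By the 2-fold rule 1, 4 and 5 members passed without libraries 1, 2 and 3, a setting added after seeing the data, where 3.73%, 1.98% and 4.30% of tested genes did. The mean share of Ighm among heavy-chain FPKM was 54.6%, and became 48.1% of reads and 39.7% of reads per secreted-form length, a setting also added after seeing the data. By that length Igha took 13.4%, 43.9% and 40.1% in libraries 1, 2 and 3, and Ighm 35.3%, 41.1% and 42.6%, so that Igha was above Ighm in library 2. The mean share of the IgG genes, 16.5%, ran from 6.87% without library 1 to 21.6% without library 2. Igkc over Iglc1 averaged 12.5, and 6.54 against Iglc1, Iglc2 and Iglc3 summed.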
